A study of Mus musculus with 4 samples.

Results

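The genes that detect double-stranded RNA, or that respond to it directly, were followed in BR5FVB1-Akt cells with and without decitabine. The set held 8 genes (Ddx58, Ifih1, Dhx58, Mavs, Tlr3, Zbp1, Eif2ak2 and Adar), chosen by name, of 22180 genes tested. Each was represented by exactly 1 array row that carried its symbol alone, so the rule of taking the row with the highest mean left no choice to make, and all 8 were measured. BR5FVB1-Akt is a mouse line that the labels describe as ovarian cancer. Each of 4 samples gave total RNA for 1 whole-transcript array, Affymetrix Mouse Gene 2.0ST: 2 control samples, with no decitabine, and 2 samples given 10 uM decitabine for 72 h. The medium was DMEM for both groups, with serum (10% FBS) and antibiotics, and the labels name no vehicle for the controls. The labels conflict on the treatment. Their treatment field names decitabine for all 4 samples, controls included, and the groups used here rest on the sample titles, with which the source names of the samples match. No gene on the arrays was used to check them. The labels speak of biological replicates without saying whether the cultures were separate, so p-values measure the spread between these 4 arrays, which may be technical.

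Double-stranded RNA is a hallmark of viral replication, and cells carry several proteins that bind it. In the cytosol the helicases RIG-I (gene Ddx58) and MDA5 (Ifih1) recognise different forms of it and pass the signal to MAVS, an adaptor protein on mitochondria, which leads to interferon production. LGP2 (Dhx58) is a related helicase without the signalling domains of the other helicases and modulates them. TLR3 senses double-stranded RNA in endosomes, ZBP1 binds nucleic acids in the left-handed Z form, PKR (Eif2ak2) blocks translation by phosphorylating eIF2 alpha, and ADAR1 (Adar) edits adenosine to inosine in paired RNA, which keeps the cell's own transcripts from being sensed. Most of these genes are themselves induced by interferon. Decitabine traps DNA methyltransferases on replicating DNA and so lowers DNA methylation. In human cancer cells such drugs are known to raise transcripts of endogenous retroviruses that can form double-stranded RNA. No repeat transcripts were analysed here.

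Promoter sequences are shown because interferon acts on these genes through short promoter elements, bound by IRF factors and by the STAT-containing complex ISGF3, and the genes differed in whether such letters lay near their start. RefSeq promoters of build GRCm38.p6, running from 250 bases before to 50 bases after a transcription start, were found for 6 of the 8 genes in 8 entries. Dhx58 and Zbp1 had no entry. Both strands were searched for the IRF core AANNGAAA, for GAAANNGAAA, the usual spacing of the interferon-stimulated response element, and for GAAANGAAA, the same repeats 1 base apart. The last was added after the sequences had been read. Both longer motifs contain the core, so their matches overlap. The windows below are 30 bases long, read 5′ to 3′ on the strand of the gene, with the match in capitals. Positions give the first base of the match as printed, counted from 1 at the transcription start and with negative numbers before it. In order, they cover chr4:40239804-40239833, chr4:40239867-40239896, chr2:62646206-62646235, chr17:78882535-78882564, chr3:89730735-89730764 and chr8:45410421-45410450, with the Adar and other entries on the plus and minus strand respectively.
Ddx58, GAAANNGAAA on the opposite strand, at position 3: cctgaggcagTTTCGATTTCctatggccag
Ddx58, GAAANGAAA, at position -60: gtctaggttcaGAAACGAAActggatcccc
Ifih1, GAAANNGAAA, at position 33: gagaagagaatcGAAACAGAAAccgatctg
Eif2ak2, GAAANNGAAA, at position 19: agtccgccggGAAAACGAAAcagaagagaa
Adar, GAAANGAAA, at position 29 of the third start: gccttttcaagGAAACGAAAgtgaactctg
Tlr3, AANNGAAA on the opposite strand, at position -59: aagtgaatggcTTTCACTTtgtttagacac

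GAAANNGAAA was present in the promoters of Ddx58, Ifih1 and Eif2ak2, and in 3.44% of the 32851 promoter entries of that length in the RefSeq table. GAAANGAAA, added after the sequences had been read, was present in Ddx58 and in the third of 3 Adar entries. It was in 3.17% of all entries, and given how it was chosen that comparison is only a description. The core AANNGAAA was found in Ddx58, Ifih1, Eif2ak2, Adar and Tlr3, against 23.9% of all entries. The letters TTCNNNGAA were searched as well, and were present in Eif2ak2 and in the third Adar entry, against 8.3% of all entries. Mavs had none of these motifs in its single window, nor did the first and second Adar starts. These are matches of letters in 300 bases. They do not show binding, and the absence of a match says only that these letters are not in this window. For comparison, the 250 bases before the start are given for Ddx58, the gene with the largest positive difference (chr4:40239826-40240075, minus strand, GAAANGAAA in capitals), and for Mavs, the gene with a negative one (chr2:131233813-131234062, plus strand).
Ddx58: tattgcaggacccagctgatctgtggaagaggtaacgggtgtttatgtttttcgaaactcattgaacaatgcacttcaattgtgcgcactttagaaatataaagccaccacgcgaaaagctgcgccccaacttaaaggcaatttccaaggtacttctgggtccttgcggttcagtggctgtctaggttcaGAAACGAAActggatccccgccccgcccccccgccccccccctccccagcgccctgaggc
Mavs: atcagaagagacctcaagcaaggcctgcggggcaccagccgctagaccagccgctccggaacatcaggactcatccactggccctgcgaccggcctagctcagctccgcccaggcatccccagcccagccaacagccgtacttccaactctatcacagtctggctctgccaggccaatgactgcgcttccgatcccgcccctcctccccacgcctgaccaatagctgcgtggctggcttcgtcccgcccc

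CpG dinucleotides, the sites that DNA methyltransferases act on, numbered 15 in the 300-base Ddx58 promoter, 14 in Ifih1, 17 in Eif2ak2, 10 in Tlr3 and 19 in Mavs. The 3 Adar entries held 6, 34 and 12. The median over all promoter entries was 7. By percentile of CpG count among them, Ddx58 lay at 66.2, Ifih1 at 64.5, Eif2ak2 at 69.4, Tlr3 at 57.6 and Mavs at 72.7. The Adar entries lay at 45.7, 92.7 and 61.3. Methylation was not measured here, so these counts describe the sequence only.

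The single comparison of the design asked how 72 h of decitabine changed expression. Of the 8 genes, 7 were higher on both decitabine arrays than on both control arrays, and Mavs was lower on both. Such a separation of the groups was common, since 23.4% of all genes tested showed it upward and 22.5% downward. None of the 8 passed the threshold of adjusted p under 0.05 in limma without an intensity trend, where 0.131% of all genes passed as higher and 0.0135% as lower. The smallest adjusted p of the set was 0.0762, shared by Ddx58 and Zbp1. With no adjustment, limma's p was under 0.05 for all 8, 7 upward and 1 downward, as it was for 7.34% and 6.97% of all genes. The median log2 fold change of the 8 genes was 0.70, beside 0.00 over all genes tested. With 2 arrays against 2, an exact two-sided permutation test of a single gene cannot go below p = 0.333.

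The calls depended on how the variance was modelled. When limma's prior variance was allowed to follow the mean level (an intensity trend), all 8 genes passed over all genes tested, 7 as higher and 1 as lower. In that fit 3.68% of all genes passed as higher and 3.6% as lower. With the trend and all 41345 array rows fitted, which includes rows without a gene symbol, Ddx58 alone of the 8 passed (adjusted p = 0.0401). Shares of all genes were then 0.514% higher and 0.23% lower. In fits without the trend, 3 were higher when genes below the 25th percentile of level were left out (0.908% of the remaining genes higher, 0.385% lower), and 6 when only the brighter part, above the median, was fitted (5.73% and 5.55%). The fold changes are the same in these fits. Both the error assigned to them and, in the filtered and all-row fits, the set of genes or rows behind the prior and the adjustment differ, and which of these moved the count was not tested. At a threshold of adjusted p under 0.10 without the trend, 2 of the 8 were higher, as were 0.514% of all genes. With the trend and the replicate number as a block, 7 were higher and 1 lower, as were 4.24% and 4.31% of all genes. By the mean of all 4 arrays, which set the filters on level, all 8 genes lay above the median of the genes tested. There the trend assigned a smaller error to all but Zbp1. Zbp1 was at the 51.6th percentile by that mean and at the 44.4th in the controls. It thus passed the median filter only through its decitabine arrays.

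**Figure D1:**
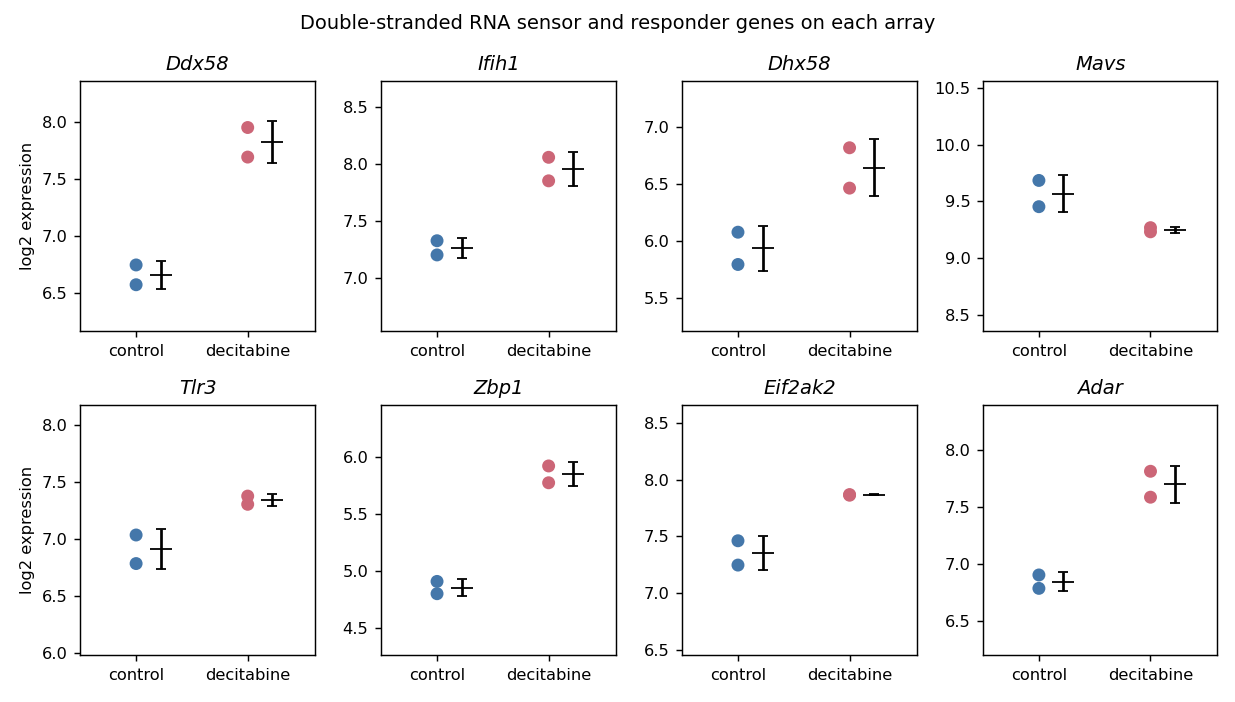
Log2 expression (vertical axis, a span of 2.2 log2 units in every panel) of the 8 genes on the 2 control and 2 decitabine arrays; points are arrays and the black marks are the group mean with the SD (n = 2). The decitabine points lie above the control points in 7 panels and below them for Mavs.

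Among the cytosolic helicases, Ddx58, the RIG-I gene, had the largest difference of the set. Its log2 expression was 6.74 and 6.57 in the controls, and 7.69 and 7.95 with decitabine. The groups were far apart, with the smallest difference between a decitabine and a control array at 0.95, against gaps of 0.17 and 0.26 within the groups. The log2 fold change was 1.17 ± 0.14 (SE, 2 arrays per group), a 2.24-fold difference with a 95% confidence interval of 1.76 to 2.86. Its adjusted p in limma was 0.0762 without and 1.71e-04 with the trend.

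Ifih1, which encodes MDA5, the helicase that binds long double-stranded RNA, read 7.32 and 7.20 in the controls, and 7.85 and 8.06 with decitabine. Both decitabine values lay above both control values, by at least 0.53. The log2 fold change was 0.69 ± 0.12 (SE), with a 95% interval of 0.38 to 1.00, and an adjusted p in limma of 0.137 without and 0.00181 with the trend. Dhx58, the gene of the regulatory helicase LGP2, was at 5.79 and 6.08 without and 6.46 and 6.82 with decitabine. It had the widest gaps of the set between arrays of a group, 0.28 among controls and 0.35 with decitabine, and its groups still did not overlap. The log2 fold change of 0.71 ± 0.17 (SE) had an interval of 0.27 to 1.15 and an adjusted p in limma of 0.204 without and 0.0165 with the trend. Ifih1 and Dhx58 thus had nearly equal estimates, the latter with the larger error.

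Mavs, the adaptor that both signalling helicases use, was the one gene with lower values. Control arrays gave a log2 expression of 9.68 and 9.45, and decitabine arrays 9.27 and 9.23. The groups were apart by 0.18 at the nearest, less than the gap of 0.23 between the 2 control arrays. The log2 fold change was −0.32 ± 0.12 (SE), with a 95% interval of −0.62 to −0.01, and an adjusted p in limma of 0.333 without and 0.0352 with the trend. Without control replicate 1 the difference was −0.20, and without control replicate 2 it was −0.43, so its size depended on which control array was used.

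Tlr3, the endosomal receptor, was at 6.78 and 7.03 without decitabine and at 7.38 and 7.30 with it. The groups did not overlap, though the nearest values were 0.27 apart, close to the gap of 0.25 between the control arrays. The log2 fold change was 0.43 ± 0.13 (SE), the smallest of the positive differences, with an interval of 0.11 to 0.75. The adjusted p in limma was 0.247 without and 0.0364 with the trend. When an array was left out under the trend, Tlr3 passed in 0 of 4 fits (adjusted p from 0.0675 to 0.337).

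Zbp1, the sensor of Z-form nucleic acids that can start necroptosis, had the most even replicates among the larger differences. Its log2 expression was 4.91 and 4.80 without decitabine and 5.92 and 5.77 with it. The nearest values of the groups were 0.87 apart, against gaps of 0.11 and 0.15 within groups. The log2 fold change was 1.00 ± 0.11 (SE), a 1.99-fold difference with an interval of 1.64 to 2.43. The adjusted p in limma was 0.0762 without and 0.00214 with the trend. Its control level was at the 44.4th percentile of the genes tested, the lowest position of the 8. No background level was set for any row.

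Eif2ak2 and Adar encode enzymes that double-stranded RNA switches on or that act on it. Both genes were higher on each decitabine array than on each control array, and neither passed without the trend. Eif2ak2, the PKR gene, read 7.25 and 7.46 in the controls, and 7.86 and 7.87 with decitabine. Its decitabine arrays lay within 0.01 of each other and above both controls, with a log2 fold change of 0.51 ± 0.12 (SE, interval 0.21 to 0.81) and an adjusted p in limma of 0.191 without and 0.00854 with the trend. Adar, the RNA editing gene, was at 6.79 and 6.90 without decitabine and at 7.59 and 7.82 with it. Its log2 fold change was 0.86 ± 0.12 (SE, interval 0.54 to 1.17), a 1.81-fold difference, and the adjusted p in limma was 0.106 without and 7.09e-04 with the trend. Adar is known to make a longer interferon-inducible and a shorter constitutive protein from different starts. Its single row gives 1 value for the gene, so the forms were not separated.

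**Figure D2:**
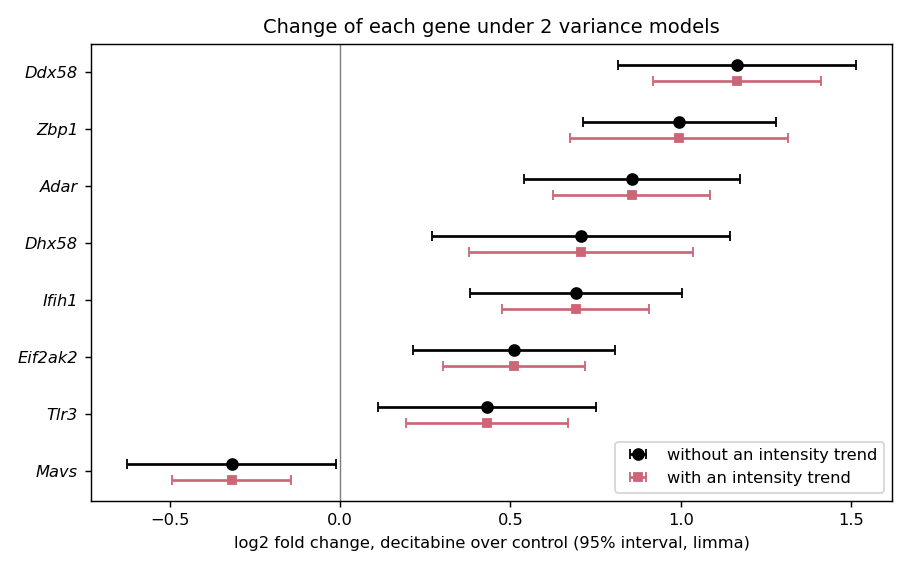
Log2 fold change, decitabine over control (horizontal axis), of the 8 genes with 95% confidence intervals from limma without (black circles) and with (red squares) an intensity trend; all intervals exclude 0. The interval of Mavs without the trend ends at −0.01, and Ddx58 and Zbp1 have the largest estimates.

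The estimated change varied among the genes, and no test was made of the differences between them. In order of log2 fold change they ran from Ddx58 through Zbp1, Adar, Dhx58, Ifih1, Eif2ak2 and Tlr3 to Mavs. For each of the 28 pairs the log2 values of the genes were subtracted within each array, and the groups were compared on that difference. The groups of arrays overlapped for 7 pairs and did not for 21. Over all pairs of genes tested, 45.3% did not overlap in either direction. Among the 7 neighbouring pairs in this order, 4 overlapped: Ddx58 with Zbp1, Zbp1 with Adar, Dhx58 with Ifih1, and Ifih1 with Eif2ak2. Zbp1 with Dhx58, Dhx58 with Eif2ak2 and Ifih1 with Tlr3 overlapped as well. Ddx58 was separated from Ifih1, the other signalling helicase, by 0.47, with 0.45 and 0.50 on the decitabine arrays relative to the control mean and 0.02 and −0.02 on the controls. Mavs was separated from each of the other genes, by 0.75 (Tlr3) to 1.48 (Ddx58). Its separations, which are among the 21, were fixed by the single genes. Mavs was lower and the others were higher on both decitabine arrays, with no overlap in any. The 28 pairs were not tested further, because the same 4 arrays enter every one.

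**Figure D3:**
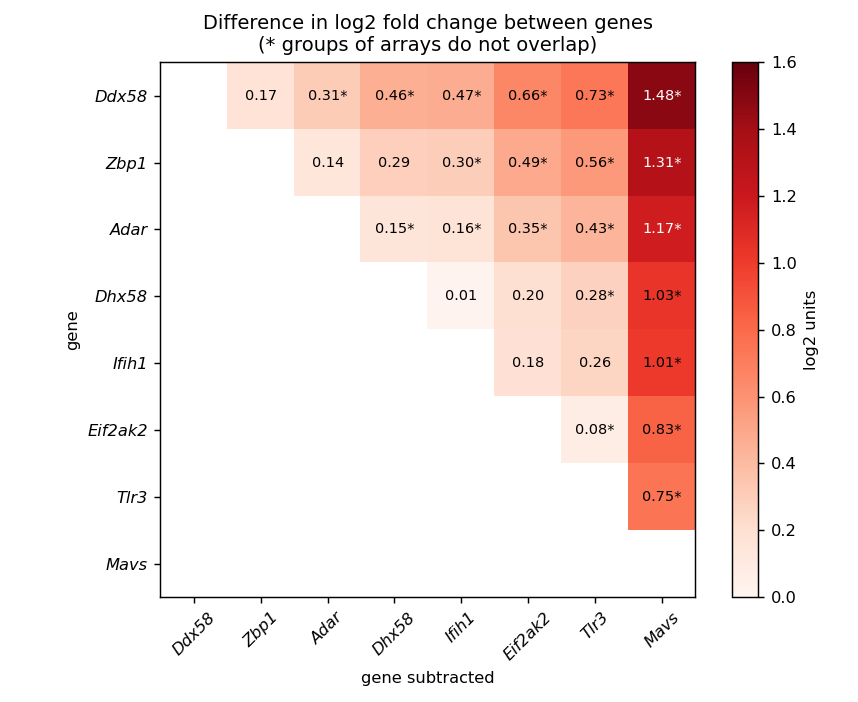
Difference in log2 fold change between each pair of the 8 genes (the row gene minus the column gene, colour scale in log2 units), ordered by change; an asterisk marks pairs whose within-array differences did not overlap between the groups. All 7 pairs with Mavs carry an asterisk, which was fixed by its opposite direction without overlap. Of the 7 neighbouring pairs, 4 carry none, and of all pairs of genes tested, 45.3% would carry one.

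The arrays of the decitabine group were not alike for all genes. Decitabine replicate 2 was above replicate 1 for 5 of the 7 higher genes: Ddx58, Ifih1, Dhx58, Adar and, by 0.01, Eif2ak2. The share of all genes with that order was not counted. The median over the genes tested was also higher on decitabine replicate 2, at 5.29 against 5.22 on replicate 1. Leaving out decitabine replicate 1 gave a median log2 fold change of 0.84 for the 8 genes, and leaving out decitabine replicate 2 gave 0.56. The direction of each of the 8 genes was the same whichever of the 4 arrays was left out. This could not have been otherwise, since the groups of arrays did not overlap for any of them. Without an intensity trend the lowest adjusted p in limma was then 0.184, for Ddx58. With the trend Ddx58 and Adar passed in all 4 such fits, Ifih1 and Eif2ak2 in 3, Zbp1 in 2, and Dhx58 and Mavs in 1. In these fits the share of all genes that passed as higher was 1% when control replicate 1 was the array left out and 0.974% for control replicate 2. It was 3.01% when decitabine replicate 1 was left out and 2.55% for decitabine replicate 2. Mavs passed as lower without control replicate 2, where 0.825% of all genes did.

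The pathways around the sensors were compared with lists drawn up with earlier results of these data known, so their counts are descriptions. Of all genes, 7.34% had an unadjusted p under 0.05 in limma upward and 6.97% downward. With the trend, 3.68% of all genes passed as higher and 3.6% as lower. Of 18 measured genes of RIG-I-like receptor signalling, 0 passed in limma without the trend, 6 had an unadjusted p under 0.05, all upward, and the median was 0.06. The largest difference was in Irf7, an interferon-induced transcription factor that amplifies interferon production. It went from 6.31 and 6.10 to 7.77 and 8.12, a log2 fold change of 1.74 ± 0.16 (SE) with an adjusted p in limma of 0.0564 without and 3.49e-05 with the trend. The ubiquitin ligase Rnf125, which marks RIG-I and MAVS for degradation, was at 0.45 ± 0.10, and the deubiquitinase Cyld, which restrains RIG-I, was at 0.43 ± 0.10 (adjusted p = 0.178 and 0.186 without the trend). The kinase gene Tbk1 was at 0.16 ± 0.10 and the transcription factor gene Irf3 at −0.11 ± 0.10 (adjusted p = 0.530 and 0.684). With the trend 4 of the 18 passed, all higher.

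A list of TLR3 signalling and general Toll-like receptor genes had a median of −0.01 over 8 measured members. It was not restricted to genes that TLR3 itself needs. Of the 8, 2 were downward and 0 upward below an unadjusted p of 0.05, and 0 passed in limma in either variance model. The lower ones were Unc93b1, which escorts endosomal Toll-like receptors (−0.35 ± 0.11), and the chaperone gene Cnpy3 (−0.32 ± 0.10), with adjusted p of 0.267 and 0.265. Ticam1, the adaptor of TLR3, was at −0.07 ± 0.21, and its groups overlapped. The Toll-like receptor genes for single-stranded nucleic acids, Tlr7 (0.25 ± 0.14), Tlr9 (0.30 ± 0.15) and Tlr13 (0.54 ± 0.26), did not pass in limma with or without the trend.

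Among 15 measured regulators of PKR and genes of the eIF2 pathway, the median was 0.07, with unadjusted p under 0.05 for 2 upward and 1 downward, and 0 passing in limma without the trend. The transcription factor gene Ddit3, a late target of eIF2 phosphorylation, was at 0.71 ± 0.10 and passed with the trend (adjusted p = 0.101 without and 0.00243 with it). Prkra, whose product activates PKR, went from 6.78 and 6.63 to 6.35 and 6.20, a log2 fold change of −0.43 ± 0.12. Its groups did not overlap, and it did not pass in either fit (adjusted p = 0.234 and 0.0506). Eif2b3, a subunit of the exchange factor that eIF2 phosphorylation blocks, was at 0.37 ± 0.11 (adjusted p = 0.248). Of 5 measured partners of ZBP1 in cell death, none passed in limma in either fit and none had an unadjusted p under 0.05. The necroptosis kinase gene Ripk3 was at 0.02 ± 0.11 and the pore-forming effector gene Mlkl at 0.27 ± 0.12, while Cflar and Fadd were at −0.18 ± 0.10 and −0.13 ± 0.10.

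Other genes of RNA editing and double-stranded RNA binding had a median of −0.03 over 12 members, with unadjusted p under 0.05 for 1, downward, and 0 passing in limma in either fit. Dicer1, which cuts double-stranded RNA, was at 0.10 ± 0.10, Zfr at 0.21 ± 0.10 and Strbp at −0.22 ± 0.10. The lower one was Adad1, a testis gene of the Adar family, at −0.44 ± 0.13, and its row lay at the 14.0th percentile of level. Among 10 other DExD/H-box helicases the median was 0.06, and 0 passed without the trend. With it, Ddx60 (0.96 ± 0.16), an interferon-induced helicase, and Ddx21 (0.52 ± 0.10), a nucleolar helicase, passed as higher, and Skiv2l (−0.30 ± 0.10), of the cytosolic RNA exosome, as lower (adjusted p = 0.00500, 0.00115 and 0.0406 in limma).

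The oligoadenylate synthetase genes, whose enzymes are also switched on by double-stranded RNA, had a larger median than the 8 genes, 1.28 over 7 measured members. None passed in limma without the trend, and 5 were higher and 0 lower with it. At an unadjusted p under 0.05 without the trend, 5 were higher and 1 lower. The lower one, Oas1c, named after its value was seen, was at −0.27 ± 0.10 (adjusted p = 0.333). Oasl2 was at 2.01 ± 0.19, Oas1g at 1.28 ± 0.12 and Oas1b at 0.88 ± 0.11 (adjusted p = 0.0564, 0.0579 and 0.0855 without the trend). The genes of this family are closely similar, so which copy a row measures is uncertain.

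The ligands at the end of the sensing pathway did not differ detectably on these arrays. Of 19 measured interferon genes, 0 passed in limma in either fit, and 1, downward, had an unadjusted p under 0.05. Their median was −0.04, and 9 of the 19 lay below the 25th percentile of level. Ifnb1, the interferon beta gene, read 3.66 and 2.73 in the controls, and 3.41 and 3.18 with decitabine. The control values enclosed the decitabine values, and the log2 fold change was 0.10 ± 0.32 (SE). Ifnab, the lower one, was at −0.65 ± 0.10 on a row at the 14.2nd percentile of level (adjusted p = 0.126).

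Of 6 measured genes of the interferon receptor and of ISGF3, the complex that induces interferon-stimulated genes, 0 passed in limma without the trend, and 2 were higher and 0 lower with it. These were Irf9, the DNA-binding subunit (0.93 ± 0.11, adjusted p = 0.0762 without and 1.87e-04 with the trend), and Stat2 (0.46 ± 0.15, adjusted p = 0.274 and 0.0284). The receptor gene Ifnar1 was at −0.23 ± 0.10 (adjusted p = 0.379 without the trend). Among 8 known targets of IRF3 and ISGF3, 4 passed as higher in limma without the trend, among them Ccl5, Ifit1 and Cxcl10. In that fit 0.131% of all genes passed as higher and 0.0135% as lower. The median of the 8 targets was 1.58, with 7 positive estimates and 1 negative. That list was drawn up with earlier results of these data known and gives no independent support.

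**Figure D4:**
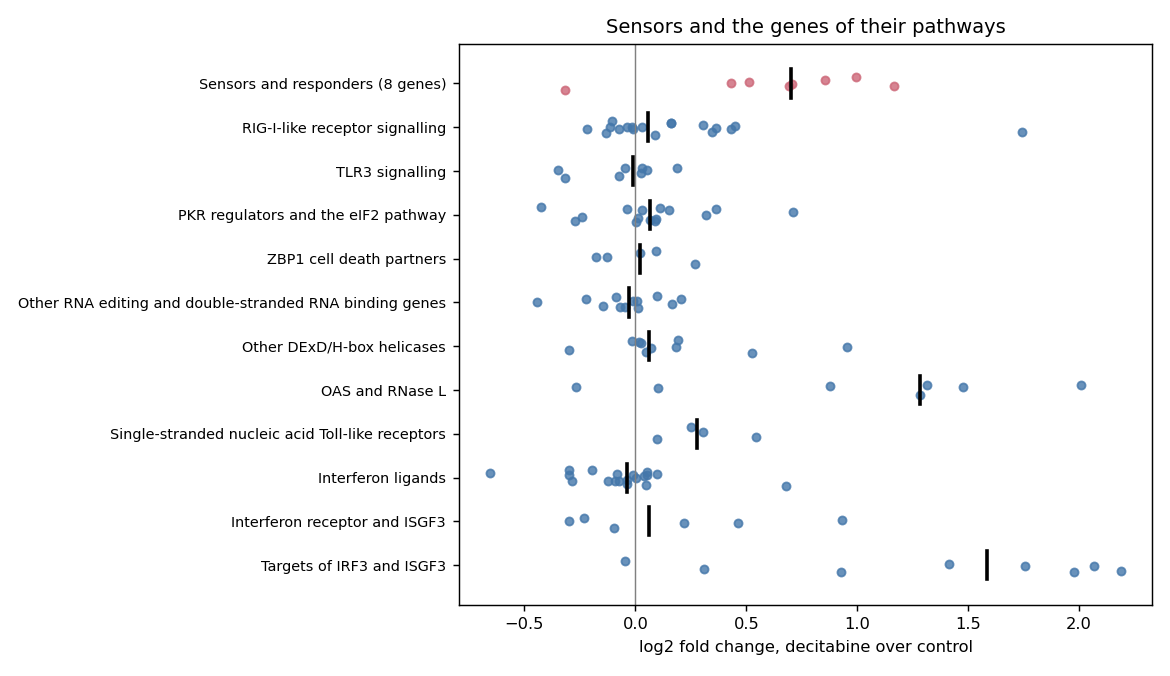
Log2 fold change, decitabine over control (horizontal axis), of each measured gene of the 8-gene set (red) and of 11 pathway lists (blue); points are genes and black bars are list medians. The 8-gene set has a median of 0.70, the oligoadenylate synthetases one of 1.28, and interferon ligands one of −0.04.

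To show which genes had the most similar values, each gene's 4 array values were centred on their mean, and the Euclidean distance to each set member with an absolute log2 fold change over 0.5 was taken over all genes. Nearest to Ddx58 were Enc1, Itga7 and Ifi27, at distances of 0.11, 0.11 and 0.13 log2 units. Nearest to Zbp1 were Nes, Sema3d and Pdgfb (0.06, 0.06 and 0.08), and nearest to Adar were Vat1, Parp12 and Creb5 (0.04, 0.04 and 0.11). Slc12a2, Kctd9 and Anln came nearest to Eif2ak2 (0.03, 0.04 and 0.05). For Ifih1 they were Nupr1, Olfr43 and Helz2 (0.04, 0.05 and 0.07), and for Dhx58 they were Vmn2r45, Olfr1501 and Mmp27 (0.07, 0.12 and 0.12). Of these 18 genes, Ifi27, Helz2 and Parp12 are known interferon-induced genes. The chemosensory receptor genes Olfr43, Vmn2r45 and Olfr1501 lay at the 8.95th, 19.3rd and 7.40th percentile of level, so that with 4 arrays a dim row can match a member's profile.

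Markers of cell types were read on the same arrays. The ovarian surface and mesothelial genes Wt1 and Upk3b lay at the 99.0th and 99.8th percentile of level, and the fibroblast genes Dcn and Pdgfra at the 99.8th and 99.1st. Of the epithelial genes, the keratins Krt18, Krt19 and Krt8 lay at the 95th, 90.0th and 77.6th percentile and Epcam at the 42.5th. The Muellerian gene Pax8 was at the 20.6th. Of 8 epithelial markers, 3 passed as higher with the trend, as did 3.68% of all genes, and 0 without it. All 8 had decitabine arrays above the controls, as did 23.4% of all genes. Their mean levels were 6.47 and 6.48 on the control and 6.77 and 6.74 on the decitabine arrays. The 6 fibroblast markers had mean levels of 9.32 and 9.23 on the control and 9.48 and 9.43 on the decitabine arrays, with 1 higher and 1 lower in the trend fit: Thy1 (1.48 ± 0.17, adjusted p = 2.39e-04 in limma) and Pdgfra (−0.28 ± 0.10, adjusted p = 0.00976). The 6 ovarian surface and Muellerian markers had means of 7.44 and 7.31, and 7.49 and 7.43. In the trend fit the mesothelial gene Msln was higher (0.86 ± 0.10, adjusted p = 4.66e-04), and Wt1 (−0.28 ± 0.10, adjusted p = 0.0106) and Upk3b (−0.19 ± 0.10, adjusted p = 0.0254) were lower. None of these lists had a gene that passed without the trend. The 4 endothelial markers had means of 4.47 and 4.27, and 4.57 and 4.68. Their median log2 fold change was 0.26, with unadjusted p under 0.05 for 2, Cdh5 (0.43 ± 0.14) and Kdr (0.38 ± 0.12), and 0 passed in limma in either fit. Leukocytes carry Tlr3 and Zbp1, and 7 of 9 measured leukocyte markers lay below the 25th percentile of level, with Ptprc between 3.01 and 3.24 on the 4 arrays. Cd68 and Csf1r lay above it, at the 69.0th and 55.0th percentile. The mean level of the 9 markers was 3.99 and 3.88 in the controls, and 3.94 and 4.17 with decitabine. Of them Cd68 (0.45 ± 0.10) and Itgam (0.50 ± 0.11) had an unadjusted p under 0.05, and Cd68 passed with the trend (adjusted p = 0.0216 in limma). The part of these marker genes in the differences of the 8 genes was not tested. In bulk RNA, a change in the share of cells that express a gene and a change in RNA per cell cannot be told apart.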

How the data were processed

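The data are 4 arrays, 2 control and 2 decitabine. The authors deposited 1 value per array row, read here as log2 expression from a range of 0.55 to 13.26 with no missing cell. The log base, summarisation and scaling are not given in the sources used here. Groups and replicate numbers came from sample titles, since the treatment field does not separate the groups. Of 41345 rows, 23521 carried 1 symbol in the platform annotation, 1814 several and 16010 none here, and the highest-mean row per symbol left 22180 genes. All of them entered one two-sided limma fit (version 3.58.1, R 4.3.3, lmFit with eBayes) with group as its term. P-values were adjusted by Benjamini-Hochberg across the genes tested, and 0.05 was the threshold. The prior SD was 0.12 on 3.07 degrees of freedom. The number of arrays limits the precision. The fit was tested on simulated data, with changes larger than those of the 8 genes and an error unrelated to level. That test does not show how the fit performs for changes of their size. Pairs of arrays correlated across genes, which are not independent replicates, with Pearson's r from 0.990 to 0.995, and array medians over all rows were 4.60 to 4.66.

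The members and lists were chosen with earlier results of these data known. The genes named were the 8 members, the 3 genes of each list with the smallest p, a fixed set of pathway genes (Irf3, Irf7, Tbk1, Ticam1, Ifnb1, Ripk3, Mlkl, Prkra, Dicer1, Stat2 and Irf9 among them) and, for members past an absolute log2 fold change of 0.5, the 3 nearest profiles. Symbols of the form Gm plus digits or ending in Rik were left out of those. Cell type markers were named from their own list. List genes without a row of their own symbol were not analysed here. Alternatives were 2 scalings, 2 filters on level, an intensity trend, robust eBayes, a replicate block, other uses of a gene's rows, other thresholds and leaving out each array. Combinations of the trend with all rows, the block and left-out arrays were added after seeing the data. Promoters and names came from RefSeq, assembly GRCm38.p6. Figures used Python 3.11.15 and matplotlib 3.10.9.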

Additional observations from a re-analysis of the deposited data

How the results depend on the processing

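Each of the 8 genes had the same direction in each of the 19 alternative fits run. Only the 2 scalings could have changed a direction. The other fits kept the fold change as it was, or left out an array from groups that did not overlap. The count of genes called in limma did not hold. It was 0 higher and 0 lower as reported, with quantile normalization, centred arrays, robust eBayes, averaging a gene's rows, fitting all rows and the replicate block, and 0 to 0 when any array was left out. It became 3 higher with the 25th percentile of level as a floor (Ddx58, Zbp1 and Adar), 6 with the median level as a floor (all but Tlr3 of the higher genes), and 7 higher and 1 lower with the intensity trend. Of all genes in these fits, 0.908%, 5.73% and 3.68% passed as higher, in that order, and 3.6% as lower with the trend. Zbp1, at the 44.4th percentile in the controls, cleared the median floor only through its decitabine arrays. The filtered fits changed both the genes tested and the prior, and the cause was not tested. A threshold of 0.10 gave 2 higher, and an unadjusted p under 0.05 gave 7 higher and 1 lower. With the trend, all rows gave 1 higher, the replicate block 7 higher and 1 lower, and leaving out an array 3 to 6 higher (3 without either control array, 6 without decitabine replicate 1 and 5 without decitabine replicate 2) and 0 to 1 lower. The median log2 fold change of the 8 genes was 0.84 without decitabine replicate 1 and 0.56 without decitabine replicate 2, with or without the trend, and moved by less than the spread between replicates otherwise.

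The labels state no pairing of same-numbered arrays. The deviations of these arrays from the group means correlated at −0.02 over genes, which does not settle whether the cultures were paired. With the replicate block and no trend, adjusted p over the 8 genes ran from 0.167 (Zbp1) to 0.396 (Mavs), and no call changed, as none was made. No background was set, so the arrays do not show whether dim interferon genes were expressed.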
